A study of Mus musculus with 16 samples.

Results

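TG sensory neurons, which innervate the head and face, were compared with L3–L5 DRG sensory neurons, which innervate the hindlimb, gene class by gene class across the transcriptome. The libraries were taken by their titles: 4 of TG and 4 of L3–L5 DRG, 8 of the 16 RNA-seq libraries of the series. The remaining 8, from the nodose and jugular complex (NG/JG) and from T10-L1 DRG, appear only where a level is set beside theirs. All groups came from naive C57BL/6J mice labelled male, 8 to 12 weeks old by the methods, that carried Pirt-cre and Rosa26 LSL-tdTomato. *Pirt* encodes a membrane protein of sensory neurons that modulates TRP channels, and Cre driven from it turns on the red protein TdTomato for good in any cell that has expressed it. Bright TdTomato-positive cells were collected from dissociated left and right ganglia by 2 cycles of fluorescence-activated cell sorting, and the labels call them Pirt1+ neurons. By the labels the 2 groups differ in the ganglion alone. The labels do not say that libraries came from separate animals, so p-values measure the spread between these libraries, which may be partly technical.

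Somatosensory neurons of both ganglia report touch, temperature, itch and pain. Body position is reported by proprioceptors, which the study describes as present in DRG and missing from TG. Small unmyelinated nociceptors detect damage and heat through TRP channels and carry the sodium channels Nav1.8 and Nav1.9, and large myelinated neurons rich in neurofilament serve touch and proprioception. TG neurons derive from cranial neural crest and placodes, and DRG neurons from trunk neural crest, whose position along the body is marked by the Hox code. In every ganglion each neuron is wrapped by satellite glial cells and its axon by Schwann cells, while the central root of the TG also holds oligodendrocytes.

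Reads on genes ranged from 5082985 to 7877884 in TG libraries and from 4735624 to 12136228 in L3–L5 DRG libraries, so that 3 counts, the floor used here, were worth 0.381 to 0.590 and 0.247 to 0.633 CPM, or counts scaled by the total of reads on genes. Molecular identifiers were not used, so the floor and all counting intervals cover no error but that of counting. TG library 1 stood apart: its Spearman correlation across genes with the other 3 TG libraries was 0.639 to 0.655, against 0.890 to 0.907 among those 3, and it had reads on 11527 genes against 14441 to 15354. L3–L5 DRG library 4 had 66.6% of its uniquely aligned reads outside genes, against 32.0% to 35.5% in the other 3. The animals are labelled male, yet all 8 libraries had reads on *Xist*, from 1279 to 8198, and none on 13 genes of chromosome Y.

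Each of 16 sensory neuron identity markers had reads in both ganglia, but the share of neuronal RNA differed from library to library. The 16 markers summed to 2496, 7541, 9727 and 7681 CPM in TG libraries 1 to 4 and to 7021, 17221, 18510 and 2818 CPM in L3–L5 DRG libraries 1 to 4, the order kept throughout. *Pirt* itself had 132, 611, 106 and 523 counts in TG and 3164, 1617, 2095 and 226 in L3–L5 DRG. The groups overlapped in both measures, with L3–L5 DRG libraries 2 and 3 highest and TG library 1 and L3–L5 DRG library 4 lowest in the summed markers. Glial RNA was plentiful: 18 Schwann cell and satellite glia markers, none at 0, summed to between 89004 and 95194 CPM in TG and between 22813 and 71441 CPM in L3–L5 DRG, with no overlap, and *Apoe* made up 45.9% of that sum. In bulk RNA, fewer neurons of a type and less RNA per neuron cannot be told apart. Because the share of neuronal RNA differed between libraries, many levels are also given relative to 7 pan-neuronal genes (*Tubb3*, *Uchl1*, *Snap25*, *Stmn2*, *Elavl4*, *Rbfox3* and *Mtap2*). Each is then a percent of their summed CPM in the same library, called the neuronal ratio below. In this ratio the summed Schwann cell and satellite glia markers overlapped between the ganglia. The ratio adjusts for the share of neuronal RNA and does not tell the number of neurons of a type from RNA per neuron. The 7 genes summed to 897, 1808, 3107 and 2602 CPM in TG and 2528, 6817, 8670 and 1206 CPM in L3–L5 DRG. This ratio was chosen after the values were seen, and it assumes that these 7 genes do not themselves differ between the ganglia.

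Of 12900 genes tested with edgeR's quasi-likelihood test on counts with TMM factors, 0% (0 genes) passed an adjusted p of 0.05 in either direction. The lowest adjusted p was 0.0829, shared by 174 genes, and 2342 genes had an unadjusted p under 0.05, of which 1308 were higher and 1034 lower in TG. Without TG library 1 the same test called 1191 genes higher in TG, 8.91% of those tested, and 847 lower, 6.34%. DESeq2 on all 8 libraries called 881 higher, 6.20%, and 731 lower, 5.14%. Both sets of calls shared 718 genes higher in TG, 81.5% of the DESeq2 calls and 60.3% of the calls without TG library 1, and 359 lower, 49.1% and 42.4%. All 4 TG libraries lay above all 4 L3–L5 DRG libraries in normalized CPM (CPM scaled by TMM factors) for 944 genes, 7.32% of those tested, and below them for 932, 7.22%. The median log2 fold change of TG over L3–L5 DRG across all genes tested was -0.03. In what follows, gene classes are described by their number of members, their calls in DESeq2 and without TG library 1, and their median log2 fold change, and no named gene passed the quasi-likelihood test on the 8 libraries. A member that passed the filter on low counts through 1 group alone had to differ, so medians and counts over the members tested are descriptions, above all in classes with few of them.

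Hox genes were nearly silent in TG and present in L3–L5 DRG. These homeobox factors set position along the body axis, and most of them are not expressed in the anterior head. Of 39 Hox genes counted, 20 had no read in any TG library and 1 had none in any L3–L5 DRG library. The 39 genes summed to 16.5, 6.89, 12.4 and 13 CPM in TG and 168, 204, 299 and 184 CPM in L3–L5 DRG, with no overlap between the ganglia. DESeq2 called 16 Hox genes lower in TG and the test without TG library 1 called 11, with 0 higher in either. Only 13 of the 39 passed the filter on low counts, most of them through L3–L5 DRG where they are high, so no summary over those 13 is given.

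*Hoxa7* (mm9 chr6:52164490-52171853, minus strand) had 0, 1, 1 and 0 counts in TG and 404, 281, 486 and 114 in L3–L5 DRG. The pooled ratio of L3–L5 DRG over TG was 422, with a 95% counting interval of 117 to 3492, and the fitted log2 fold change was -7.97 ± 1.18 (SE, edgeR adjusted p = 0.0829). *Hoxa10* (chr6:52181196-52190853), a gene of lumbar identity, had 0, 0, 1 and 3 counts in TG and 183, 332, 570 and 52 in L3–L5 DRG (log2 fold change -6.84 ± 1.36 SE). *Hoxb5* (chr11:96163909-96167434) had 1, 1, 0 and 1 counts in TG and 79, 262, 443 and 17 in L3–L5 DRG, a pooled ratio of 176 with an interval of 59.9 to 853. In each of these genes every L3–L5 DRG library lay above every TG library, and L3–L5 DRG library 4 was the lowest of its group. Genes without a read in TG were at least 63.1-fold (*Hoxb2*), 84.8-fold (*Hoxb7*), 37.3-fold (*Hoxd8*), 28.9-fold (*Hoxb3*) and 25-fold (*Hoxc6*) higher in L3–L5 DRG, against a floor of 3 counts over the group. *Hoxc10* and *Hoxc9* had pooled ratios of 140 (interval 24.9 to 5557) and 50.2 (interval 17 to 245). The neuronal ratio, computed for all of these but *Hoxc6*, kept them apart, as for *Hoxa7*, at 0 to 0.0109% in TG and 0.409% to 2.00% in L3–L5 DRG.

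Per kilobase of exon, TG was compared with the remaining ganglia for the same genes. In TG *Hoxa7* was at 0.0320 ± 0.0371 RPKM (SD, n = 4) and in NG/JG at 0.252 ± 0.445, while T10-L1 DRG had 10.4 ± 2.92 and L3–L5 DRG 11.4 ± 2.80. For *Hoxa10* the level was 0.0455 ± 0.0647 RPKM in TG, 0.947 ± 0.735 in T10-L1 DRG and 7.08 ± 4.19 in L3–L5 DRG, with no read in NG/JG. *Hoxb5* was at 0.0444 ± 0.0314 RPKM in TG and had its highest mean in NG/JG, 45.2 ± 28.7, followed by L3–L5 DRG with 6.56 ± 5.51 and T10-L1 DRG with 2.49 ± 2.01. The 39 Hox genes together summed to 116 to 313 CPM in NG/JG and 91.7 to 243 CPM in T10-L1 DRG, so TG was the lowest of the 4 ganglia. *Hoxd1* was the exception among Hox genes in TG: it had 125, 4, 54 and 47 counts there and 31, 129, 348 and 1 in L3–L5 DRG. The groups overlapped in full, its log2 fold change was -0.13 ± 1.28 (SE), and its sign changed with the libraries used. *Hoxd3* also had reads in TG, mainly in library 2, at 4.88 normalized CPM against 0 to 0.411 in the other 3. Hox genes of a cluster overlap one another in the annotation, so reads in shared exons can be set aside as ambiguous and missed for both neighbours.

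**Figure D1:**
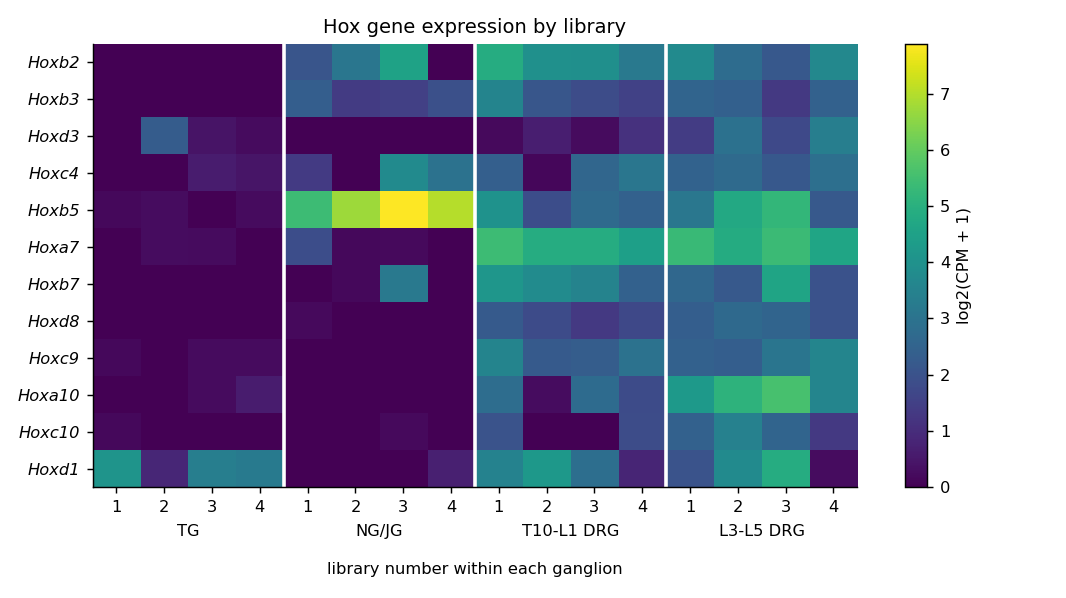
Expression of 12 Hox genes in each of the 16 libraries, in log2(CPM + 1), with genes ordered from the anterior to the posterior end of the clusters except *Hoxd1*, and libraries 1 to 4 of each ganglion side by side. TG columns are at or near 0 for all but *Hoxd1* and, in library 2, *Hoxd3*, while *Hoxa7* is bright in both DRG groups and *Hoxb5* in NG/JG.

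Of 9 TALE homeodomain cofactors, all tested, 1 lay below L3–L5 DRG without overlap, DESeq2 and the test without TG library 1 called 0, and the median log2 fold change was 0.11. Of 52 other transcription factors of sensory neuron development, 33 were tested, 1 lay below without overlap, the median was -0.44, and DESeq2 called 3 lower and 0 higher against 0 lower and 1 higher without TG library 1. Among the 3 were *Prrxl1* (Drg11), needed for nociceptive circuits, and *Ldb2*, a LIM domain cofactor. *Prrxl1* (log2 fold change -3.30 ± 1.05) and *Ldb2* (-2.37 ± 0.77) overlapped in normalized CPM, with L3–L5 DRG library 4 inside the TG range, but not in the neuronal ratio.

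Among the 16 identity markers themselves the median log2 fold change was -1.01, none was free of overlap, and DESeq2 called *Avil* and *Scn10a* lower in TG, of which *Avil* was also called without TG library 1. *Avil* encodes advillin, an actin-binding protein of peripheral sensory neurons whose promoter is widely used to mark them. It had 23.5, 95.1, 71.6 and 67.1 normalized CPM in TG and 309, 959, 936 and 71.1 in L3–L5 DRG (log2 fold change -3.15 ± 0.76 SE, edgeR adjusted p = 0.0859). Only L3–L5 DRG library 4 reached the TG range. In the neuronal ratio *Avil* was at 1.92% to 4.24% in TG and 6.84% to 15.6% in L3–L5 DRG, without overlap. *Tubb3*, the neuronal tubulin, had a log2 fold change of -1.30 ± 0.78, and *Sncg*, the synuclein that is the most abundant marker, had 0.89 ± 0.60 in the other direction, both with overlap. In the neuronal ratio *Sncg* lay above without overlap, at 135.9% to 261.4% in TG and 41.2% to 92.7% in L3–L5 DRG. The sum of the 16 markers was at 278.3% to 417% in TG and 213.5% to 277.7% in L3–L5 DRG, so the groups were barely apart. That sum includes the 7 genes of the ratio itself and *Sncg*, 33.6% of its CPM over all 16 libraries of the series. It is therefore not a result separate from *Sncg*.

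Several heat and chemical sensing channels were lower in TG, among them *Trpv1*, the capsaicin receptor. Of 18 TRP channels counted, 15 were tested, 4 lay below L3–L5 DRG without overlap and 0 above, and the median log2 fold change was -0.92. DESeq2 called 5 lower (*Trpv1*, *Trpv2*, *Trpa1*, *Trpc6* and *Mcoln1*) and the test without TG library 1 called *Trpv1* and *Trpv2*. *Trpv1* (chr11:73047794-73074744, plus strand) had 78, 24, 44 and 15 counts in TG and 1085, 2993, 7451 and 206 in L3–L5 DRG. In normalized CPM this was 9.78, 5.85, 9.05 and 3.06 against 89.6, 269, 566 and 37.5, a log2 fold change of -5.11 ± 0.86 (SE, edgeR adjusted p = 0.0829). The 2 groups did not overlap, although L3–L5 DRG itself spanned 37.5 to 566. Per length, TG had 1.69 ± 0.865 RPKM (SD, n = 4), below the means of L3–L5 DRG (72.0 ± 69.7), NG/JG (18.0 ± 23.7) and T10-L1 DRG (9.01 ± 7.60), though the NG/JG range of 0.0281 to 52.4 enclosed that of TG. The neuronal ratio of *Trpv1* was 1.10%, 0.261%, 0.243% and 0.101% in TG and 4.17%, 4.36%, 7.08% and 3.61% in L3–L5 DRG, so the groups remained apart with a narrower spread in L3–L5 DRG.

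*Trpv2*, a relative of *Trpv1* found in larger neurons, had 0.627, 4.15, 10.9 and 6.93 normalized CPM in TG and 53.8, 140, 163 and 19.5 in L3–L5 DRG (log2 fold change -4.06 ± 0.92 SE). Its neuronal ratio was 0.0708% to 0.293% in TG and a narrow 1.87% to 2.50% in L3–L5 DRG. *Trpa1*, the receptor for irritants such as mustard oil, ranged from 0.251 to 10.5 normalized CPM in TG and from 0.728 to 225 in L3–L5 DRG. It overlapped through L3–L5 DRG library 4, also in the neuronal ratio. *Trpc6* had reads in TG library 2 only, at 5.12 normalized CPM, and 8.91 to 66.9 in L3–L5 DRG. *Mcoln1*, a lysosomal channel, showed a small and even difference, 46.3 to 68.0 in TG and 85.7 to 126 in L3–L5 DRG, and overlapped in the neuronal ratio.

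Voltage-gated channel classes had negative medians and few members called. Over all genes tested, 7.22% lay below without overlap, and 5.14% were called lower by DESeq2 and 6.34% without TG library 1. The counts that follow are to be read beside these shares, and no shift of a whole class is drawn from them. Of 15 sodium channel genes, all tested, the median log2 fold change was -1.44, 1 lay below without overlap and DESeq2 called 3 lower and 0 higher, against 1 and 0 without TG library 1. *Scn10a*, which encodes Nav1.8 of nociceptors, had 48.9, 113, 81.3 and 83.0 normalized CPM in TG and 222, 1145, 1113 and 35.3 in L3–L5 DRG (log2 fold change -2.95 ± 0.87). *Scn11a*, which encodes Nav1.9, had 1.13, 57.1, 18.9 and 26.5 against 84.3, 495, 332 and 18.9 (-3.17 ± 1.11). L3–L5 DRG library 4 lay below all 4 TG libraries for *Scn10a* and inside their range for *Scn11a*, and the neuronal ratio of both overlapped. *Scn3b*, an auxiliary subunit, did not overlap, at 12.4 to 58.7 in TG and 71.3 to 266 in L3–L5 DRG, but did in the neuronal ratio, where TG library 1 was at 6.62% against 2.80% to 6.86% in L3–L5 DRG.

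Of 92 potassium channel genes, 59 were tested, 2 lay below without overlap, and the median log2 fold change was -1.17. DESeq2 called 6 lower and 1 higher, and the test without TG library 1 called 6 lower and 0 higher. Examples were *Kcnab1*, an auxiliary subunit (log2 fold change -2.58 ± 0.64, no overlap), *Kcnd1*, an A-type channel (-3.28 ± 0.97), and *Kcnip4*, which modifies A-type channels (-3.55 ± 1.15), and these 3 overlapped in the neuronal ratio. Calcium channels (26 counted, 16 tested, median -1.11, 2 below without overlap) and HCN, chloride and anoctamin channels (20 counted, 15 tested, median -0.34, 2 below) each had 3 lower calls in DESeq2 and 0 higher, against 1 and 3 lower calls without TG library 1.

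Among 17 acid-sensing, Piezo and other mechanosensory channels, 13 were tested, 2 lay below without overlap, the median was -0.68, and DESeq2 called 2 lower, against 1 lower and 1 higher without TG library 1. *Fam38b*, the earlier symbol of *Piezo2*, the main channel of light touch, had 21.2, 66.8, 71.0 and 74.2 normalized CPM in TG and 81.8, 270, 323 and 91.5 in L3–L5 DRG. The log2 fold change was -1.72 ± 0.57 (SE, edgeR adjusted p = 0.144). The groups did not overlap in either measure, with a neuronal ratio of 1.91% to 2.98% in TG and 3.81% to 8.81% in L3–L5 DRG. *Tmem63c*, of a family of osmosensitive channels, had a log2 fold change of -3.69 ± 1.22 and overlapped in normalized CPM but not in the neuronal ratio.

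Of 7 P2X receptors for ATP, 5 were tested, with a median of -0.15, and DESeq2 called 2 lower, against 0 without TG library 1. *P2rx3*, the receptor of non-peptidergic nociceptors, had an even level in TG, 36.1, 38.8, 41.1 and 31.8 normalized CPM, and 134, 546, 421 and 27.7 in L3–L5 DRG (log2 fold change -2.93 ± 0.74). L3–L5 DRG library 4 lay below all 4 TG libraries. *P2rx2* was near its floor in TG, at 0.251 to 0.976, against 2.37 to 10 in L3–L5 DRG without overlap, and the neuronal ratio kept it apart.

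**Figure D2:**
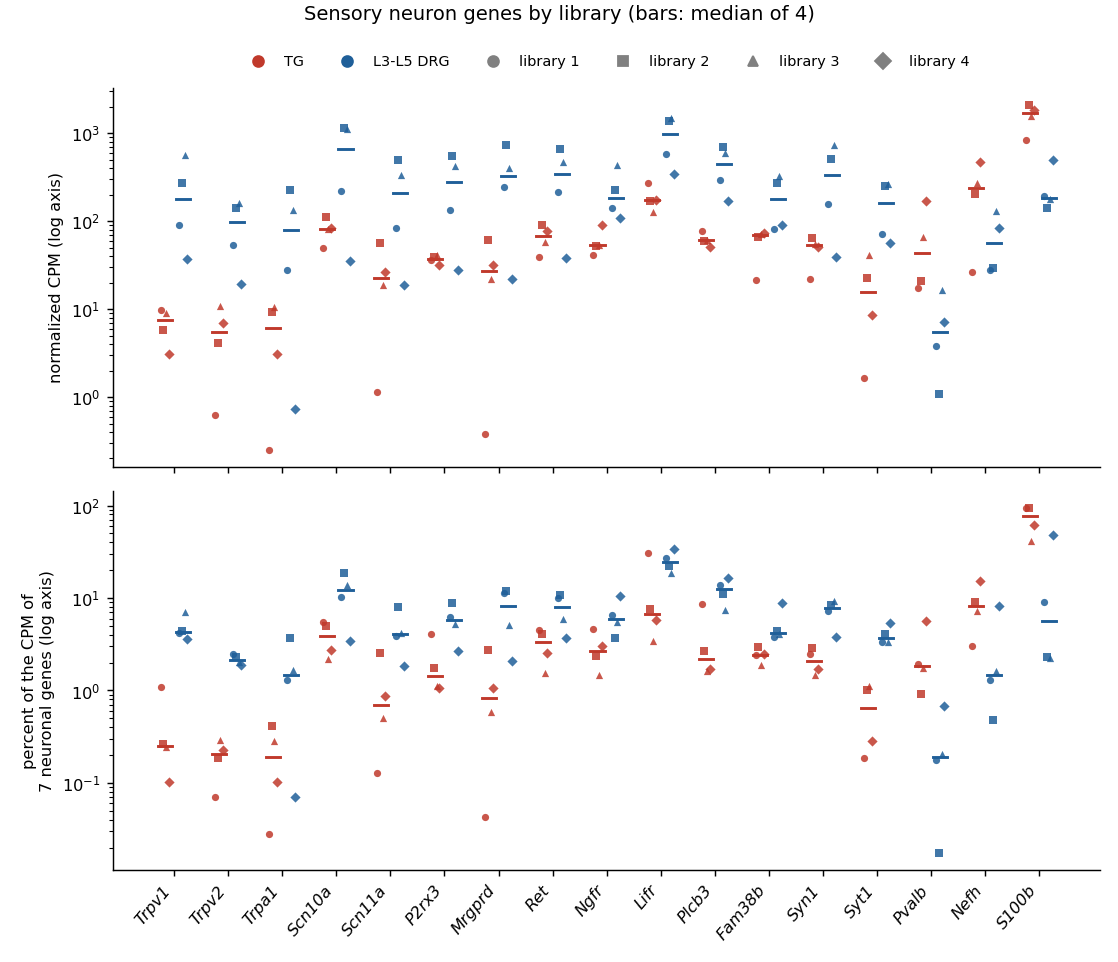
Levels of 17 sensory neuron genes in the 8 libraries, as normalized CPM (upper panel) and as percent of the summed CPM of 7 pan-neuronal genes (lower panel), both on log axes, with points for libraries and bars for the median of 4. *Trpv1*, *Trpv2*, *Fam38b*, *Syn1* and *Syt1* are lower and *Pvalb* higher in TG without overlap in the lower panel, while *Scn10a*, *P2rx3*, *Mrgprd*, *Ret*, *Ngfr*, *Lifr* and *Plcb3* overlap there.

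Several itch-related genes were also lower in TG. Of 20 Mas-related receptors, which mark pruriceptive and polymodal skin afferents, 4 were tested, with a median log2 fold change of -3.12, and 8 had no read in TG against 3 in L3–L5 DRG. DESeq2 called 2 lower and the test without TG library 1 called 1. Their sum was 2.16, 86.4, 39.5 and 50.0 CPM in TG and 413, 889, 682 and 108 CPM in L3–L5 DRG, without overlap. As a neuronal ratio the sum was 0.241% to 4.78% and 7.87% to 16.3%, again without overlap. *Mrgprd*, the β-alanine receptor, made up 65.8% of the sum, with 0.376, 60.7, 21.8 and 31.8 normalized CPM in TG and 242, 731, 405 and 21.8 in L3–L5 DRG (log2 fold change -3.61 ± 1.20, overlap through L3–L5 DRG library 4). *Mrgpre* had 0, 9.02, 7.82 and 9.99 in TG and 41.8, 44.8, 169 and 19.3 in L3–L5 DRG, with no overlap in either measure.

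Of 21 genes for itch receptors, their signalling and their peptides, 9 were tested, with a median of -1.87, and DESeq2 called 6 lower and 0 higher against 3 and 0 without TG library 1. *Plcb3*, the phospholipase downstream of histamine and Mas-related receptors, had 77.1, 59.8, 60.9 and 51.0 normalized CPM in TG and 294, 689, 598 and 170 in L3–L5 DRG. The log2 fold change was -2.82 ± 0.47 (SE, edgeR adjusted p = 0.0829), and it had no overlap in normalized CPM but did in the neuronal ratio, where TG library 1 was at 8.70% and L3–L5 DRG library 3 at 7.48%. The gene lies at chr19:7028204-7044279 on the minus strand.

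Receptors for the growth factors that maintain adult nociceptors followed. Of 19 neurotrophin, GDNF and related cytokine receptors, 15 were tested, 3 lay below without overlap and 0 above, and the median was -1.42. DESeq2 called 5 lower (*Ngfr*, *Ret*, *Gfra1*, *Gfra2* and *Lifr*), the test without TG library 1 called 4 lower, and neither called any higher. *Lifr*, the receptor of leukaemia inhibitory factor, had 271, 171, 127 and 174 normalized CPM in TG and 582, 1373, 1499 and 348 in L3–L5 DRG (log2 fold change -2.36 ± 0.52, edgeR adjusted p = 0.0829). *Ngfr*, the low-affinity p75 receptor, had a log2 fold change of -1.94 ± 0.49 and *Gfra1*, the GDNF co-receptor, -1.43 ± 0.42, both without overlap. *Ret*, the kinase for GDNF ligands (-2.39 ± 0.71), overlapped through L3–L5 DRG library 4. In the neuronal ratio these receptors overlapped, as *Lifr* did at 3.40% to 30.6% in TG and 18.8% to 33.5% in L3–L5 DRG.

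By nociceptor class, 18 non-peptidergic genes (15 tested) had a median log2 fold change of -2.45 and 20 peptidergic genes (16 tested) one of -0.70. DESeq2 called 10 non-peptidergic genes lower and 0 higher, of which 1 was also called without TG library 1. It called 4 peptidergic genes lower and 1 higher, against 3 and 0 without TG library 1. Among the non-peptidergic genes *Cd55*, a complement regulator, had a log2 fold change of -2.03 ± 0.63. Among the peptidergic ones *Adcyap1*, which encodes the peptide PACAP, had 0.502 to 39.9 normalized CPM in TG and 21.6 to 325 in L3–L5 DRG (-3.18 ± 1.09). *Calca*, which encodes the migraine-related peptide CGRP, had 389, 912, 2303 and 676 normalized CPM in TG and 771, 2370, 3412 and 280 in L3–L5 DRG (log2 fold change -0.67 ± 0.76. The groups overlapped for *Calca*, and its neuronal ratio was 22.3% to 61.9% in TG and 26.9% to 42.7% in L3–L5 DRG, whereas that of *Adcyap1* did not overlap.

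Some large-fibre genes went the other way. Of 25 genes for large myelinated neurons and neurofilament, 23 were tested, 3 lay above L3–L5 DRG without overlap and 1 below, and the median was 0.93. The member below was *Kcnab1*, described with the potassium channels, and it overlapped in the neuronal ratio. DESeq2 called 3 higher and 2 lower, and without TG library 1 there were 4 higher and 1 lower. *Pvalb*, the calcium-binding protein parvalbumin of proprioceptors and some touch neurons, had 137, 85, 319 and 832 counts in TG and 46, 12, 216 and 39 in L3–L5 DRG. In normalized CPM this was 17.2, 20.7, 65.6 and 170 against 3.80, 1.08, 16.4 and 7.09, a log2 fold change of 3.26 ± 0.98 (SE, edgeR adjusted p = 0.12). The lowest TG value, 17.2, lay just above the highest of L3–L5 DRG, 16.4, and the neuronal ratio also kept the groups apart, at 0.925% to 5.61% and 0.0175% to 0.683%. *Nefh*, the heavy neurofilament chain, had 26.6, 204, 271 and 466 in TG and 27.8, 29.7, 130 and 84.4 in L3–L5 DRG (1.83 ± 0.77), and *Thy1*, a neuronal surface protein, had 2.18 ± 0.87. TG library 1 lay below all 4 L3–L5 DRG libraries for *Nefh* and inside their range for *Thy1*, and both genes were called higher without that library.

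*S100b*, listed with large-fibre neurons but also a defining marker of glia, had 829, 2095, 1552 and 1842 normalized CPM in TG and 193, 141, 178 and 502 in L3–L5 DRG. The log2 fold change was 2.64 ± 0.52 (SE, edgeR adjusted p = 0.0829) without overlap, but the neuronal ratio of L3–L5 DRG library 4, 48.3%, exceeded that of TG library 3, 41.7%. Of the neurofilament genes, *Ina* (α-internexin) was lower in TG, at 0 to 6.12 against 6 to 76 normalized CPM (-4.46 ± 1.41).

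Several genes of the presynaptic terminal were lower in TG. Of 30 synaptic vesicle and release genes, 29 were tested, 2 lay below without overlap and 1 above, and the median was -1.54. DESeq2 called 6 lower and 1 higher, and the test without TG library 1 called 4 lower and 1 higher. *Syn1*, which tethers vesicles, had 22.2, 64.9, 54.5 and 51.4 normalized CPM in TG and 156, 515, 738 and 39.5 in L3–L5 DRG (-2.91 ± 0.78), and *Syt1*, the calcium sensor of release, had 1.63 to 41.6 and 55.9 to 267 (-3.12 ± 0.90). *Syn1* overlapped in normalized CPM through L3–L5 DRG library 4, but the neuronal ratio kept both genes apart, as for *Syn1* at 1.47% to 2.89% in TG and 3.80% to 9.24% in L3–L5 DRG. *Vamp2*, a vesicle SNARE, had -1.54 ± 0.46 and overlapped in both measures. *Cplx2*, a complexin, was the member higher in TG, with 37.7, 61.0, 89.7 and 70.2 normalized CPM against 21.7, 16.8, 23.7 and 14.6 (1.75 ± 0.46), with no overlap in either measure.

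Of 32 neuropeptides and processing genes, 18 were tested, with a median of -0.63, and DESeq2 called 4 lower and 0 higher, none of which was called without TG library 1. *Cpe*, the peptide-processing carboxypeptidase E, was even within each group, at 401 to 479 normalized CPM in TG and 728 to 913 in L3–L5 DRG (-0.86 ± 0.30), and *Scg2*, a secretogranin, had -2.40 ± 0.79 with overlap. Both genes overlapped in the neuronal ratio. Receptors for fast transmitters had negative medians: glutamate receptors and transporters -1.53 (29 counted, 16 tested, 1 above and 3 below without overlap), GABA and glycine receptors -1.44 (19 counted, 11 tested, 1 above and 1 below) and nicotinic and muscarinic receptors -1.45 (18 counted, 7 tested, 0 above and 0 below). DESeq2 called 4, 2 and 1 of these lower and 0 higher, and without TG library 1 the lower calls were 0, 1 and 1. Among the DESeq2 calls were *Grik1*, the kainate receptor subunit of small neurons (-3.79 ± 1.25), and *Grm7*, a presynaptic glutamate receptor (-3.46 ± 1.22), which both overlapped in normalized CPM and in the neuronal ratio. Serotonin, adrenergic and dopamine receptors (28 counted, 6 tested, median -1.14) had 2 lower calls in DESeq2 and 0 without TG library 1.

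Of 10 opioid and cannabinoid genes, 6 were tested, with a median of -0.35, and DESeq2 called 1 higher and 0 lower, against 2 higher and 1 lower without TG library 1. *Dagla*, which makes the endocannabinoid 2-AG, had 96.1, 91.2, 129 and 134 normalized CPM in TG and 37.9, 37.3, 32.4 and 56.8 in L3–L5 DRG (1.46 ± 0.36). It did not overlap and was called higher by DESeq2 and without TG library 1, but overlapped in the neuronal ratio. *Mgll*, which degrades the same lipid, had 1.52 ± 0.51, with overlap, and was called higher without TG library 1 but not by DESeq2.

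Of 71 axon guidance receptors and ligands, 60 were tested, 5 lay below without overlap and 1 above, and the median was -0.24. DESeq2 called 6 lower and 0 higher, and without TG library 1 there were 5 and 0. *Sema4f*, a membrane semaphorin, had 0.251, 1.71, 4.53 and 5.30 normalized CPM in TG and 32.8, 120, 113 and 18.6 in L3–L5 DRG (log2 fold change -4.60 ± 0.99 SE, edgeR adjusted p = 0.0829). *Slit1*, a repellent ligand of Robo receptors, had 0 to 4.94 and 8 to 61.6 (-3.96 ± 1.23). Both stayed apart in the neuronal ratio, where *Sema4f* was at 0.0283% to 0.175% in TG and 1.42% to 1.95% in L3–L5 DRG. *Nrp1*, a semaphorin and VEGF co-receptor, had a small difference, 60.8 to 80.6 against 120 to 145 (-0.92 ± 0.30), which overlapped in that ratio. Of 70 clustered and other protocadherins, 30 were tested, with a median of -0.98 (the same with 1 gene at 0 in a group set to its bound), 4 below without overlap, and 10 lower calls in DESeq2 against 2 without TG library 1. Isoforms of one protocadherin cluster share exons, so their counts are uncertain.

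The pituitary hormone genes *Prl*, *Gh* and *Pomc* had reads in all TG libraries. They encode prolactin, growth hormone and the precursor of ACTH and β-endorphin, and the study chose to follow them on these samples, so their direction is no independent evidence. Of 23 pituitary hormones and factors, 4 were tested, and DESeq2 and the test without TG library 1 each called 3 higher. The class summed to 484, 1963, 9511 and 76.4 CPM in TG and 8.95, 3.97, 2.55 and 69.7 CPM in L3–L5 DRG, with no overlap, though TG library 4 was only just above L3–L5 DRG library 4. *Prl* (chr13:27149439-27157073) had 437, 3145, 49211 and 221 counts in TG and 23, 27, 24 and 40 in L3–L5 DRG, so that TG library 3 alone held most of its reads. *Gh* (chr11:106161585-106163179) had 105, 2615, 2683 and 150 counts in TG and 2, 5, 1 and 17 in L3–L5 DRG (log2 fold change 8.54 ± 1.66 SE, edgeR adjusted p = 0.0829). *Pomc* had 2616, 4163, 3398 and 32 counts in TG and 13, 6, 5 and 40 in L3–L5 DRG (7.88 ± 1.55). *Gh* and *Prl* did not overlap, while for *Pomc* TG library 4, at 6.53 normalized CPM, lay below L3–L5 DRG library 4, at 7.28.

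Relative to the 7 neuronal genes *Gh* was at 1.49%, 28.4%, 14.8% and 1.01% in TG and at most 0.298% in L3–L5 DRG, and *Prl* at 6.18%, 34.2%, 272% and 1.49% in TG and at most 0.700%. *Pomc* overlapped in this ratio, at 0.2159% in TG library 4 and 0.7003% in L3–L5 DRG library 4. The class sum overlapped there too, at 2.935% in TG library 4 and 5.777% in L3–L5 DRG library 4. Of the other pituitary genes, 10 had no read in any TG library, among them *Cga*, *Tshb* and *Fshb*, the glycoprotein hormone subunits, and *Pou1f1*, a pituitary lineage factor. The same 4 genes had no read in L3–L5 DRG. Other members had reads in TG: *Tbx19*, the factor of corticotrophs, had 397, 33, 5 and 0 counts in TG and 0, 0, 0 and 3 in L3–L5 DRG (pooled ratio 221, interval 75 to 1074), and *Lhx3*, an early pituitary factor, had 0, 0, 19 and 0 and 0, 0, 0 and 3. Per length, *Gh* was at 294 ± 314 RPKM (SD, n = 4) in TG, against 0.140 ± 0.165 for NG/JG, 0.276 ± 0.150 for T10-L1 DRG and 1.27 ± 1.94 for L3–L5 DRG. Of 37 hormone receptors, 17 were tested, with a median of -1.33, and DESeq2 called 4 lower and 1 higher, against 0 lower and 1 higher without TG library 1. The higher one in DESeq2 was *Ramp2*, which pairs with the calcitonin receptor-like receptor to bind adrenomedullin, at 88.4 to 246 normalized CPM in TG and 29.2 to 70.4 in L3–L5 DRG (1.87 ± 0.43), without overlap but with overlap in the neuronal ratio.

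*Ptgds*, which encodes lipocalin-type prostaglandin D synthase, an enzyme abundant in meninges and oligodendrocytes, had the lowest quasi-likelihood p of all genes higher in TG that met the naming rule. It had 8591, 10118, 6210 and 3676 counts in TG and 82, 9, 34 and 143 in L3–L5 DRG (log2 fold change 7.29 ± 1.10 SE, edgeR adjusted p = 0.0829). All 4 TG libraries were far above, and the neuronal ratio was 24.8% to 122% against 0.0131% to 2.50%. The gene lies at chr2:25322229-25325566 on the minus strand. Of 20 genes of the prostaglandin pathway, 17 were tested, 2 lay above and 2 below without overlap, and the median was -0.26, with 1 called higher and 3 lower by DESeq2 and 1 and 1 without TG library 1. The receptors went against the enzyme: *Ptger1* and *Ptger3*, receptors of prostaglandin E2, and *Ptgir*, the prostacyclin receptor, had log2 fold changes of -3.27 ± 1.17, -3.10 ± 1.28 and -2.73 ± 1.01. DESeq2 called all 3 lower, *Ptgir* overlapped in normalized CPM, and the neuronal ratio kept each apart, as for *Ptger1* at 0 to 0.413% in TG and 1.16% to 1.89% in L3–L5 DRG.

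Several markers of oligodendrocytes, the myelin-forming cells of the central nervous system, were higher in TG. Of 17 markers, 15 were tested, 7 lay above L3–L5 DRG without overlap and 0 below, and the median was 1.79. DESeq2 called 5 higher and 1 lower, and without TG library 1 there were 4 higher and 0 lower. *Mog*, a defining protein of central myelin, had 1159, 53, 529 and 101 counts in TG and 3, 1, 0 and 6 in L3–L5 DRG (log2 fold change 7.83 ± 1.36, edgeR adjusted p = 0.0829). *Klk6*, an oligodendrocyte protease, had 910, 111, 1323 and 234 counts in TG and 19, 0, 2 and 16 in L3–L5 DRG (6.71 ± 1.32), and *Hapln2*, a link protein of central nodes, had 5.12 to 79.3 normalized CPM against 0 to 0.910 (7.37 ± 1.52). *Ermn* (5.99 ± 1.45) and *Mobp* (4.68 ± 1.39), also myelin genes, were without overlap too. The neuronal ratio kept all 5 apart. TG libraries 1 and 3 were the highest for *Mog*, *Klk6* and *Hapln2*. The 17 markers summed to 20806, 5203, 5769 and 5150 CPM in TG and 9739, 3463, 3093 and 12365 CPM in L3–L5 DRG with overlap. *Opalin* and *Olig2* had no read in L3–L5 DRG, while no marker was at 0 in TG.

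**Figure D3:**
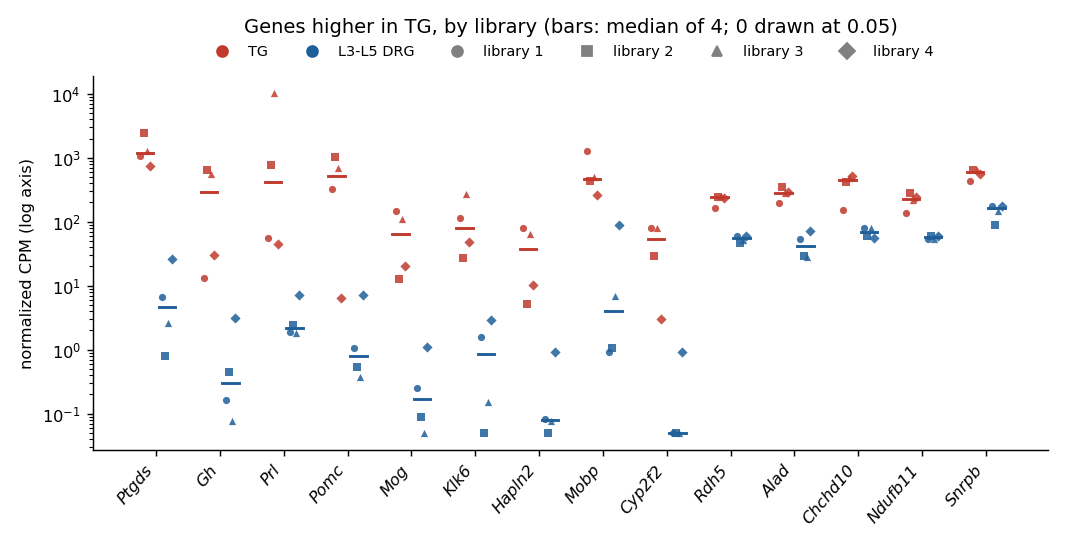
Normalized CPM on a log axis of 14 genes higher in TG, with a point for each of the 8 libraries and bars for the median of 4; values of 0 are drawn at 0.05. Hormone and central myelin genes spread widely among TG libraries, whereas *Rdh5*, *Alad*, *Ndufb11* and *Snrpb*, named partly for low p, spread less within each ganglion. All but *Pomc* are free of overlap.

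Markers of other cell types moved in different ways, and their part in the results above was not tested. The 16 fibroblast and meningeal markers, none at 0 in either ganglion, summed to 16608 to 37371 CPM in TG and 1028 to 14736 CPM in L3–L5 DRG, without overlap, and 57.6% of the sum was *Apod*. All were tested, 4 lay above without overlap, DESeq2 called 3 higher and the test without TG library 1 called 0. In the neuronal ratio their sum overlapped. The 20 macrophage and antigen-presenting markers (19 tested, median 2.00, 3 above without overlap, 0 called by either) summed to 9267 to 26928 CPM in TG and to 17163, 282, 358 and 2482 CPM in L3–L5 DRG. L3–L5 DRG libraries 2 and 3, which had the most neuronal RNA, were lowest in fibroblast, macrophage and glial sums. The 17 endothelial and mural markers (16 tested, median -0.26) overlapped, at 159 to 1181 CPM in TG and 87.9 to 2846 CPM in L3–L5 DRG, with 0 calls. Among the 18 Schwann cell and satellite glia markers, all tested with a median of 0.57, DESeq2 called 3 higher and 1 lower, and 4 and 1 were called without TG library 1. The lower one in DESeq2 was *L1cam*, an adhesion molecule that neurons also carry, at 105 to 123 normalized CPM in TG and 197 to 901 in L3–L5 DRG (-2.17 ± 0.52). Its neuronal ratio overlapped.

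Neutrophil markers went the other way: of 14 listed, 6 were tested with a median of -1.91, DESeq2 called 5 lower and 0 higher, the test without TG library 1 called 2 lower, and the class summed to 10.3 to 58.8 CPM in TG and 757, 7.34, 154 and 439 CPM in L3–L5 DRG. The granule genes *Camp* and *Elane* had no read in TG. Epithelial and gland markers (19 counted, 4 tested, median 2.55, 3 higher calls in DESeq2, 2 higher and 1 lower without TG library 1) had 1 gene above without overlap, *Cyp2f2*, a cytochrome P450 of airway epithelium, with 78.8, 28.8, 79.6 and 3.06 normalized CPM in TG and 0, 0, 0 and 0.910 in L3–L5 DRG (8 ± 1.73). *Krt5*, *Krt14* and *Sftpc* of that class had no read in TG. Of 8 erythroid markers 2 were tested, with 0 called by DESeq2 or without TG library 1, and the 4 globin genes had no read in either ganglion. Of 47 keratins 3 were tested, with 1 above without overlap (2 higher and 1 lower in DESeq2, 1 and 0 without TG library 1), and of 43 collagens 33 were tested, with a median of -0.42, 1 above and 1 lower call in either test.

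Genes of inflammation and antigen presentation differed in both directions. Of 25 NF-κB target genes, 22 were tested, 5 lay above without overlap and 0 below, and the median was 0.84, with 2 called higher by DESeq2 and 1 without TG library 1. *Nfkbia*, the inhibitor induced by NF-κB itself, had 539, 1022, 745 and 1423 normalized CPM in TG and 351, 86.6, 50.8 and 273 in L3–L5 DRG (2.29 ± 0.62). Of 26 interferon response genes, 24 were tested, 3 lay above and 2 below without overlap, and the median was 0.10. DESeq2 called 4 higher and 1 lower, whereas without TG library 1 there were 3 higher and 4 lower. *Cxcl10*, a chemokine, had 131, 198, 270 and 200 in TG and 80.6, 30.8, 15.6 and 36.6 in L3–L5 DRG (2.29 ± 0.51), *B2m*, the light chain of MHC class I, had 2970 to 9090 and 478 to 2159 (2.41 ± 0.60), and *Psmb8*, an immunoproteasome subunit, had 1.94 ± 0.43. These 3 stayed apart in the neuronal ratio. *Stat2*, a transducer of interferon signals, was lower, at 22.4 to 39.3 against 56.2 to 113 (-1.5 ± 0.4), so the class did not move as one. *H2-Ab1*, an MHC class II chain counted with the macrophage markers, had 1678 to 3379 against 49.5 to 1372 normalized CPM. The neuronal ratios of *Nfkbia*, *Stat2* and *H2-Ab1* overlapped.

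Dissociation of tissue is known to induce immediate-early, injury and heat-shock genes. Of 25 immediate-early genes, 22 were tested, with a median of 0.92, 1 above without overlap and 0 called by DESeq2 (1 higher without TG library 1), and they summed to 11105 to 26917 CPM in TG and 3603 to 19684 CPM in L3–L5 DRG, where TG library 1 and L3–L5 DRG library 4 were the highest of their groups. Of 21 injury genes, 14 were tested, with a median of 0.54, or -0.17 without TG library 1, and 1 above and 1 below. DESeq2 called 1 higher and 1 lower, against 0 and 1 without TG library 1, and their sum overlapped, at 1189 to 5382 CPM in TG and 2691 to 3193 CPM in L3–L5 DRG. Of 22 heat-shock chaperones, all tested with a median of 0.23, 3 lay above and 2 below, among the former *Cryab*, a small chaperone that glia also express, at 1771 to 5946 against 221 to 1432 normalized CPM (2.56 ± 0.67). The heat-shock sum did not overlap, at 10131 to 10921 CPM in TG and 7551 to 9201 CPM in L3–L5 DRG, and DESeq2 called 3 higher and 2 lower, against 4 and 2 without TG library 1. In the neuronal ratio both that sum and *Cryab* overlapped. Cell cycle genes (20 counted, 12 tested, median 0.54) had 1 above and 1 below, with 1 higher and 1 lower call in DESeq2 and 1 and 0 without TG library 1. Among 12 reference genes often used for scaling, the median was 0.12 (3 higher and 0 lower in DESeq2, 3 and 1 without TG library 1), yet *Actb* was higher (1.5 ± 0.5) and *Sdha* lower in TG (-1.02 ± 0.33), both without overlap, and TG library 1 was the TG library nearest to L3–L5 DRG for each. The neuronal ratio of *Actb* and of *Sdha* overlapped.

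More subunits of the ribosome, the respiratory chain and the proteasome were called higher than lower in TG by DESeq2 and without TG library 1, while the neuronal ratio of all 3 sums overlapped. Of 80 cytosolic ribosomal proteins, 66 were tested, 28 lay above L3–L5 DRG without overlap and 0 below, and the median was 1.62, with 39 called higher by DESeq2 and 40 without TG library 1. Of 81 respiratory chain subunits, 77 were tested, 25 lay above and 2 below, and the median was 1.53, with 42 and 63 called higher and 0 and 1 lower. Of 39 proteasome subunits, 37 were tested, 6 lay above and 0 below, and the median was 1.07, with 11 and 21 called higher and 0 and 3 lower. *Rpl8* had 380, 810, 594 and 568 normalized CPM in TG and 164, 163, 125 and 234 in L3–L5 DRG (1.78 ± 0.36, edgeR adjusted p = 0.0829), and *Rplp0* had 2.06 ± 0.49. *Ndufb11*, of complex I, had 137, 284, 216 and 242 in TG and 53.8, 61.0, 54.3 and 60.2 in L3–L5 DRG (1.94 ± 0.34). No overlap was seen in these 3 genes, and in each TG library 1 was the lowest of TG. In the neuronal ratio *Ndufb11* stayed apart and neither ribosomal gene did.

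These proteins are encoded by short transcripts, and the length of a gene's exons moved with the difference between the ganglia. Genes under 1 kb had a median log2 fold change of 1.5 (458 genes), and for 30.8% of them all 4 TG libraries lay above L3–L5 DRG and for 0% below. Genes of 1 to 2 kb had a median of 0.92 (1837 genes, 17.2% above and 1.69% below), and those of 2 to 3 kb one of 0.10 (2291 genes). The medians were -0.22 for 3 to 4 kb (2172 genes, 5.16% above and 9.99% below), -0.33 for 4 to 6 kb (3099 genes) and -0.31 over 6 kb (2935 genes, 2.01% above and 8.42% below). Spearman's correlation of log2 fold change with exon length was -0.339 across 12792 genes, which are not independent replicates. Reads on genes under 1 kb made up 9.95%, 9.61% and 9.57% of reads on genes in TG libraries 2 to 4, 3.93% in TG library 1 and 2.69% to 3.74% in the other 12 libraries of the series. The median exon length was 1586 bp for the ribosomal proteins, 1322 bp for the respiratory chain, 4732 bp for TRP channels and 7302 bp for sodium channels, against 3822 bp for all genes tested. The part of transcript length in the gene classes above was not tested, and *Hoxa7*, with exons of 2877 bp, and *Prl*, *Gh* and *Pomc*, in a class with a median of 951 bp, lie at different places on that scale.

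**Figure D4:**
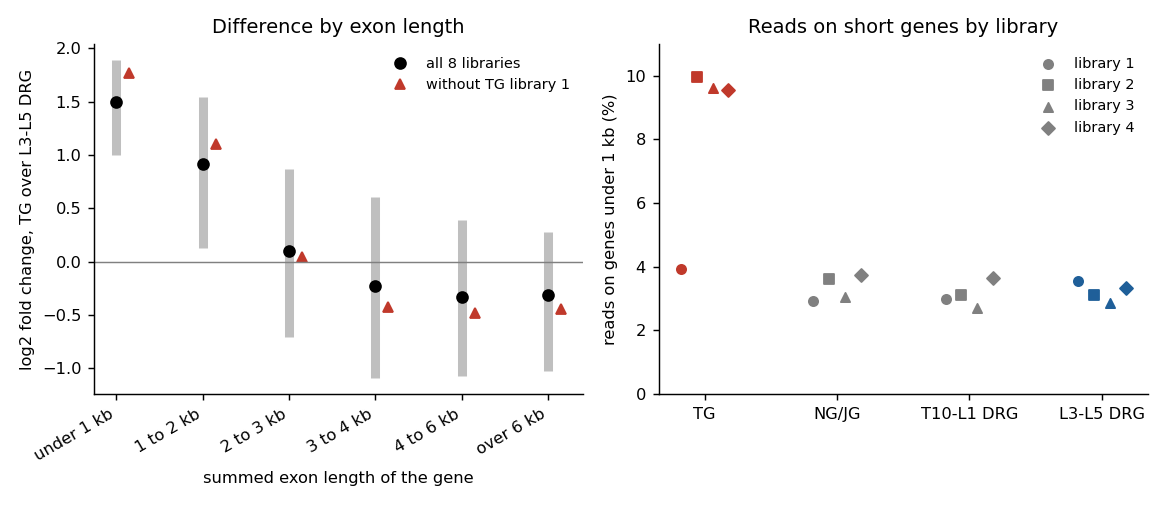
Left, median log2 fold change of TG over L3–L5 DRG in 6 classes of summed exon length, with grey bars from the lower to the upper quartile and triangles for the medians without TG library 1. Right, percent of reads on genes that fell on genes under 1 kb in each of the 16 libraries, where TG libraries 2 to 4 stand at 9.57% to 9.95% and the other 13 at 2.69% to 3.93%.

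Single genes with the lowest quasi-likelihood p that were free of overlap and called by DESeq2 were mostly general cell biology genes. Higher in TG were *Rdh5*, a retinol dehydrogenase, with 164, 247, 250 and 234 normalized CPM against 59.2, 46.5, 51.7 and 59.7 (log2 fold change 2.04 ± 0.31), and *Alad*, of haem synthesis, with 195, 348, 280 and 291 against 53.4, 28.8, 28.6 and 71.5 (2.61 ± 0.42). *Rdh5* and *Alad*, like the genes below, were named for a low p and no overlap, so their separation follows from that rule. *Chchd10*, a mitochondrial protein, had 2.53 ± 0.43, *Tm2d3* 2.75 ± 0.42, *Sec11c*, of the signal peptidase, 2.09 ± 0.36, *Pkig*, an inhibitor of protein kinase A, 2.01 ± 0.35, and *Mdk*, the growth factor midkine, 3.06 ± 0.55. *Snrpb*, of the spliceosome (1.95 ± 0.35), *Anapc13* (2.52 ± 0.46), *Mrpl52* (1.87 ± 0.34) and *Ndufb5* (2.07 ± 0.38) belong to large complexes. For all 11 of these genes the neuronal ratio also kept TG above L3–L5 DRG.

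Lower in TG by the same rule was *Sec23a*, a coat protein of vesicles leaving the endoplasmic reticulum, which had the lowest p of the whole list. It had 16.9, 19.8, 22.6 and 12.4 normalized CPM in TG and 92.1, 175, 233 and 96.1 in L3–L5 DRG (log2 fold change -3.06 ± 0.45 SE, edgeR adjusted p = 0.0829). *Tbc1d14*, a regulator of autophagy, had 3.29 to 12.6 in TG and 62.2 to 94.7 in L3–L5 DRG (-3.49 ± 0.55), and *Pdp1*, which activates pyruvate dehydrogenase, 7.20 to 12.7 and 46.7 to 109 (-2.83 ± 0.47). These 3 stayed apart in the neuronal ratio. *Dlat*, a subunit of pyruvate dehydrogenase itself (-2.13 ± 0.39), *Pkia*, another inhibitor of protein kinase A (-2.40 ± 0.42), *Ddb1* (-1.85 ± 0.29) and *Cul2* (-2.70 ± 0.49), of ubiquitin ligases, *Cav2*, a caveolin (-2.62 ± 0.43), *Cdk16* (-2.12 ± 0.38) and *Kctd10* (-2.72 ± 0.43) overlapped in that ratio. The inhibitors *Pkig* and *Pkia* of the same kinase thus differed in opposite directions, and both were called by DESeq2 and without TG library 1.

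Of 40 genes that the study names for TG and DRG, 30 were tested, 5 lay above and 19 below without overlap, and DESeq2 called 6 higher and 23 lower, against 6 and 18 without TG library 1. Those that the study chose on these samples are no independent evidence of direction. *AW551984*, by contrast, is cited by the study from earlier work of others. Outside the Hox and hormone genes, *Map3k12*, the kinase DLK of axon injury signalling, had 0.125, 3.9, 7.20 and 5.71 normalized CPM in TG and 51.0, 111, 128 and 26 in L3–L5 DRG (-4.23 ± 0.97). *Slc35c1*, a GDP-fucose transporter, had 0.125 to 3.67 and 22.1 to 31.4 (-4.00 ± 1.00), and *Coro1c*, a coronin, 0.627 to 30.4 and 87.3 to 159 (-3.12 ± 0.85). *Tspan12*, *Ranbp6*, *Rapgef5*, *Ggta1*, *Rab9b*, *Slc35b4* and *AW551984* had log2 fold changes from -3.93 (*Ranbp6*) to -2.86 (*AW551984*) and did not overlap. Each was at 0.502 or less in TG library 1, the lowest TG library for all 7. All but *Slc35b4* stayed apart in the neuronal ratio.

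**Figure D5:**
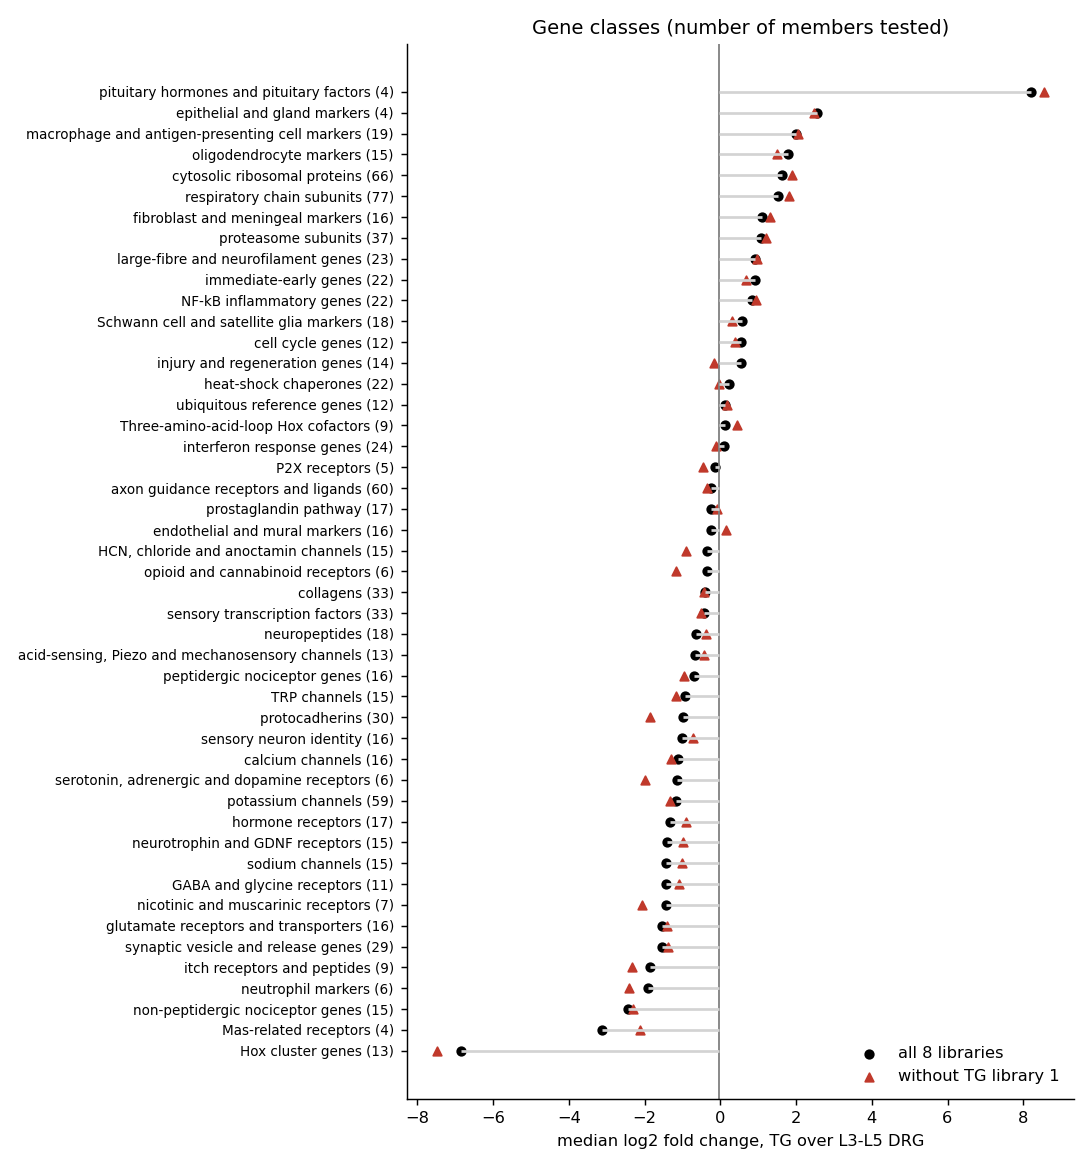
Median log2 fold change of TG over L3–L5 DRG for each gene class with at least 4 members tested, from all 8 libraries (circles) and without TG library 1 (triangles), with the number tested in brackets and the vertical line at the median of all genes, -0.03. The outlying positions of Hox and pituitary genes rest on members that passed the filter on low counts mainly through the group where they are high. Neuronal receptor and channel classes lie mostly between 0 and -3.12, and ribosomal and respiratory classes near 1.5 on the other side.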

How the data were processed

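RNA-seq libraries were prepared by SMART-seq2 from sorted Pirt1+ neurons and read as 50-base single reads on an Illumina HiSeq instrument. The deposited values are raw counts of reads per gene symbol, which the authors made with bcl2fastq, TopHat2 and HTSeq against mm9, per the labels; the versions, the annotation and the use of strand are not given in the sources used here. The counting rows for reads outside genes, 32.0% to 66.6% of uniquely aligned reads in the 8 libraries, were left out. The 4 TG and 4 L3–L5 DRG libraries were grouped by title, and no column belonged to another series.

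Counts of 22609 symbols were fitted in R 4.3.3 with edgeR 4.0.16 (limma 3.58.1): filterByExpr, TMM factors and the quasi-likelihood test on group alone, with Benjamini-Hochberg adjustment over all genes tested and a threshold of 0.05. DESeq2 1.42.0, edgeR's likelihood-ratio test, RLE factors, no filter, all 16 libraries, a replicate block and each library left out were alternatives, and the fits were tested on simulated data. RPKM used the union of GENCODE exons of the mm9 build (21679 symbols with a length, 52 of them by synonym, 930 without). DEGs had an adjusted p under 0.05, a fold above 5 and a mean RPKM above 5. The SE printed with a log2 fold change was derived from the quasi-likelihood test. It is the absolute log2 fold change divided by the square root of the F statistic, and is approximate for genes near 0 in a group.

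Genes named were, per direction, up to 15 with the lowest p that did not overlap between the groups and exceeded 5 CPM, and up to 4 per gene list. Since the quasi-likelihood test called none, the first set was called by DESeq2 alone. The 50 gene lists and the members named were chosen with earlier results of these data known, and further genes were added after their values were seen. Same-numbered TG and L3–L5 DRG libraries had correlations of their deviations from the group means of 0.0469, 0.0213, 0.126 and -0.0202, so the numbers were not taken to pair them. Some genes are not reported here.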

Additional observations from a re-analysis of the deposited data

Results flagged for a closer look

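In 282 groups of 4 libraries, 1 library lay far from the other 3 in 30, by Dixon's ratio of gap to range. Chance gives about 1 in 20 for normally distributed values. The ratio was taken on untransformed values, where any read beside 3 libraries at 0 is flagged, so no excess over chance can be read from the 30. The 30 were 24 values of 23 genes, 5 summed gene classes and the share of reads on short genes, and 10 of them concerned TG library 1.

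TG library 1 was low for *Fam38b* (21.2 normalized CPM), *Cpe* (400.8), *Pkig* (110.1), *Psmb8* (117.3) and *Actb* (6308) and high for *Kctd10* (37.8), *Sdha* (309) and *Hoxc10* (0.125, the other 3 at 0). It was also high for the summed oligodendrocyte markers (20806 CPM) and low for reads on genes under 1 kb (3.93%). Among the other TG libraries, library 2 was high for *Hoxd3* (4.88) and *Trpc6* (5.12), and library 3 for *Prl* (10124) and *Rapgef5* (5.14).

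L3–L5 DRG library 4 was high for *S100b* (501.7), *Gh* (3.09), *Prl* (7.28), *Pomc* (7.28), *Cyp2f2* (0.910), *Anapc13* (33.7), *Hapln2* (0.910) and *Mobp* (88.8), and for the summed endothelial and mural markers (2846 CPM) and pituitary genes (69.7 CPM). Library 3 of that ganglion was high for *Hoxb7* (21.5), *Mrgpre* (169.4) and *Ermn* (2.43) and low for *Hoxb3* (1.37). Library 1 was high for the summed macrophage markers (17163 CPM) and library 2 for the summed epithelial and gland markers (328.8 CPM). The causes were not tested.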

How the results depend on the processing

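The quasi-likelihood test on 8 libraries called 0 genes and 0 DEGs in either direction, and some alternatives called more. In the order genes higher in TG, genes lower in TG, DEGs higher in TG and DEGs lower in TG, DESeq2 called 881, 731, 94 and 226, and the likelihood-ratio test 505, 353, 77 and 156. No filter gave 13, 26, 11 and 24, and all 16 libraries in 1 fit gave 156, 50, 23 and 23. RLE factors and a CPM threshold gave 0. Leaving out 1 library gave 0 to 1191, 0 to 847, 0 to 136 and 0 to 207, where the highest values came without TG library 1, while without L3–L5 DRG library 1 there were 1, 0, 1 and 0. Fits chosen after seeing the data gave 1238, 1326, 210 and 433 without TG library 1 and L3–L5 DRG library 4, 914, 745, 180 and 319 with DESeq2 without L3–L5 DRG library 4, and 1659, 1837, 193 and 358 with DESeq2 without TG library 1. The cause was not tested. The replicate block, by library number, gave 0 in each of the 4 counts, as did leaving out any 1 of TG libraries 2 to 4 or L3–L5 DRG libraries 2 to 4.

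Of 128 genes followed, DESeq2 called 115 and the test without TG library 1 called 88. *Hoxd1* alone changed sign, from -0.13 to 0.70 with the replicate block and between -0.68 and 0.96 with 1 library left out (0.26 without TG library 2, 0.96 without L3–L5 DRG library 3). Genes near the floor of 3 counts, many of the Hox genes in TG among them, are limited by depth.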
